A study of Bos taurus with 12 samples.

Results

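The chaperones of the endoplasmic reticulum (ER) and the disulfide isomerases that work beside them were followed on expression arrays of bovine day 16 conceptuses and of donor fibroblasts. The gene set was defined by 8 symbols, HSPA5, HSP90B1, CALR, CANX, PDIA3, PDIA4, PDIA6 and XBP1. Every probe set annotated to one of these symbols and to no other was taken, which gave 12 probe sets of 6 genes out of 24016 probe sets of the array. Their NCBI Gene numbers are 415113 (HSPA5), 282646 (HSP90B1), 281036 (CALR), 407129 (CANX), 281803 (PDIA3) and 415110 (PDIA4). PDIA6 and XBP1 had no probe set under their own symbol in the annotation used and were not analysed here.

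The study compared conceptuses of 3 origins with each other and with the donor cells, with 3 arrays in each of 4 groups. SCNT conceptuses had been cloned by somatic cell nuclear transfer, a method that gives an enucleated oocyte the nucleus of a body cell. IVP conceptuses were produced by in vitro fertilization and embryo culture. AI conceptuses came from embryos made in vivo, AI being the usual abbreviation of artificial insemination. All 9 had been transferred into synchronized cows as blastocysts on day 7 and were recovered on day 16 of gestation at comparable lengths, when the bovine conceptus is an elongated filament of mostly trophoblast. FB samples were the fibroblasts that had supplied the nuclei for transfer. Their tissue label reads elongated embryo like that of the conceptuses, while their description names fibroblasts. No genotype, breed, sex, recipient cow or cell line is given in the labels used here. The labels do not state if a group's 3 arrays stand for different conceptuses or cultures, so a p-value here measures the spread between arrays, which may be technical.

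Proteins that enter the secretory pathway fold inside the ER. HSPA5 and HSP90B1 bind unfolded chains there, the lectins CALR and CANX hold newly made glycoproteins, and PDIA3 and PDIA4 form and rearrange disulfide bonds. When unfolded protein accumulates, the unfolded protein response raises the transcription of these genes, in mammals largely through ATF6 and XBP1. Elongating ruminant trophoblast is a secretory tissue, known for its interferon tau and pregnancy-associated glycoproteins.

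The deposited values were log2 signals with a floor to which many probe sets were tied. A probe set was tested if it lay above log2 4 on at least 3 arrays, and a difference was called where limma's p, adjusted by Benjamini-Hochberg over all tested probe sets, was under 0.05. The arrays had 26.5% to 27.7% of their probe sets above log2 4. Trophoblast markers were above log2 4 on all arrays of each conceptus group for 7 of 9 measured genes and on no FB array. Fibroblast markers were above it for 7 of 9 in FB and 1 of 9 (THY1, at 4.06 to 5.32) in each conceptus group. THY1 was itself below log2 4 in FB. Expression therefore sided with the description of the FB samples and not with their tissue label. Endometrial markers were below log2 4 on every array (0 of 7 above). The labelled spike-in controls averaged 8.57 to 8.61 on AI 2, IVP 2 and IVP 3, against 7.33 to 8.08 on the other 9 arrays. The gap between the 3' and 5' GAPDH controls, a sign of RNA quality, was 0.89 on IVP 3, against 0.21 to 0.51 on the other conceptus arrays and 0.01 to 0.06 on the FB arrays.

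Of the 12 chaperone probe sets, 8 were above the filter both among the 9 conceptus arrays and among all 12 arrays, and they covered all 6 genes. The other 4 were never above log2 4. The third HSPA5 probe set read at most 2.45 on the 12 arrays, the third PDIA4 probe set 2.54 to 2.69, and the other CANX probe sets at most 2.47 and at most 3.56. Each of these genes had another probe set with clear signal, so the low ones give no level for the gene. The results below rest on 2 probe sets of HSPA5, 2 of PDIA4 and 1 each of HSP90B1, CALR, CANX and PDIA3. The pairs of HSPA5 and of PDIA4 are called the brighter and the dimmer probe set, by their mean over the conceptus arrays. Probe sets of 1 gene are not independent of each other.

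**Figure D1:**
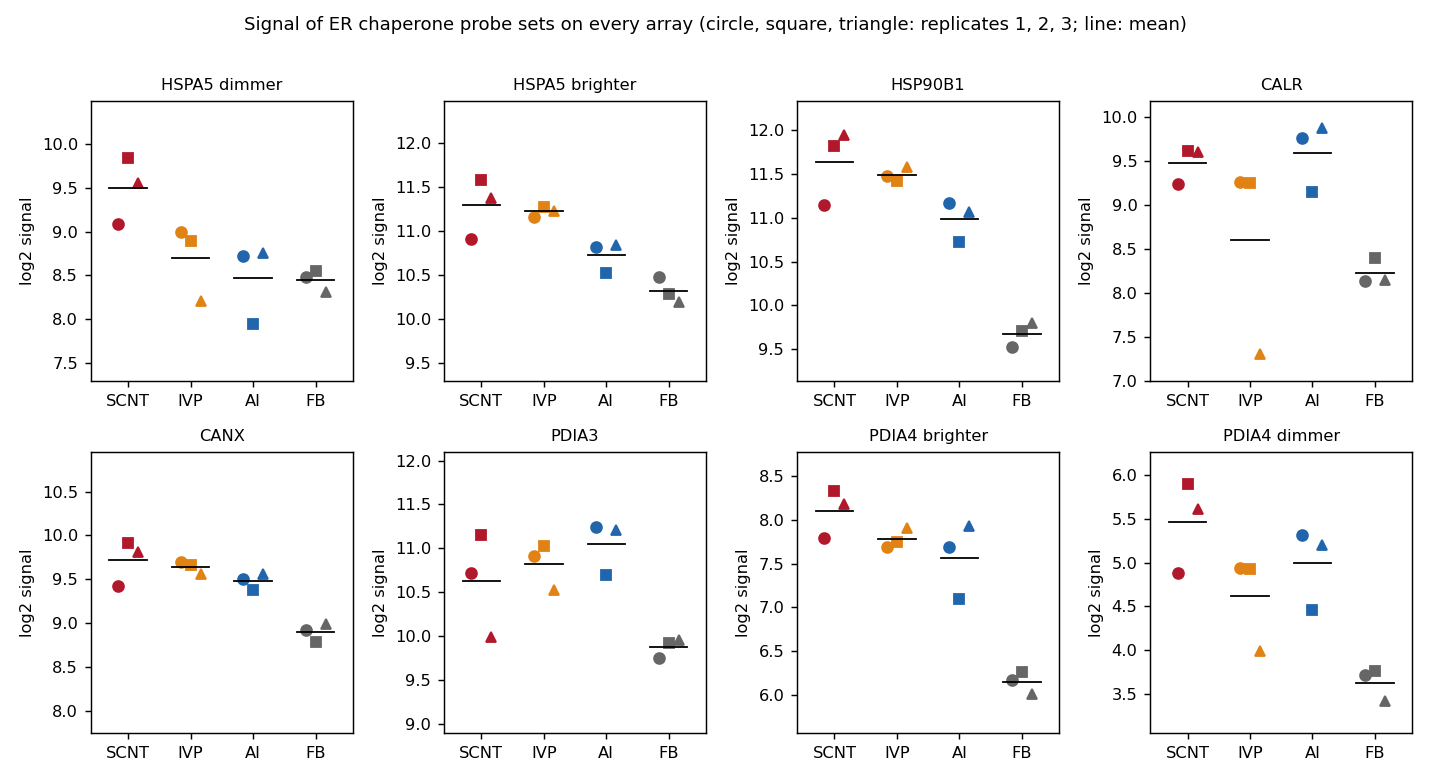
Log2 signal (y axis) of the 8 chaperone probe sets above the filter on each of the 12 arrays, by group (x axis). Circles, squares and triangles are replicates 1, 2 and 3, the line is the group mean, and every panel spans the same number of log2 units. FB has the lowest mean in all 8 panels, and the CALR signal of IVP 3 (7.30) stands far below that of the other conceptus arrays.

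The plot of signals by array shows the general picture. In SCNT conceptuses HSPA5 and HSP90B1 were called higher than in AI conceptuses, with 3 of the 8 probe sets. Of all tested probe sets 16.2% were called higher and 27.6% in either direction. None of the 3 calls held when SCNT 2, SCNT 3 or AI 2 was left out. The lectins CALR and CANX and the isomerases PDIA3 and PDIA4 did not pass the test. The difference of the brighter PDIA4 probe set (0.53) was still close to that of the brighter HSPA5 probe set (0.56). IVP conceptuses had no called chaperone against AI or against SCNT, where 17.9% and 0.58% of all tested probe sets were called. Against the fibroblasts, all 6 genes were called higher with at least 1 probe set in SCNT and AI conceptuses, and 5 of them in IVP conceptuses. Of all tested probe sets, 45% were called higher in SCNT, 41.6% in AI and 43% in IVP. The dimmer HSPA5 probe set was not called in IVP or AI against the fibroblasts. In bulk samples, a change in the share of cells that express a gene and a change in RNA per cell cannot be told apart.

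HSPA5 encodes the ER member of the heat shock protein family A, which binds unfolded chains and helps to draw them into the ER lumen. With the dimmer probe set its log2 signal was 9.09, 9.84 and 9.55 on SCNT arrays 1 to 3 and 8.99, 8.89 and 8.21 on IVP arrays, against 8.72, 7.95 and 8.75 on AI arrays and 8.48, 8.55 and 8.31 on FB arrays. All SCNT arrays lay above all IVP, AI and FB arrays, while IVP, AI and FB overlapped. The difference SCNT minus AI was 1.02 log2 units (SE 0.28), or 2.03-fold with a 95% interval of 1.32 to 3.11 (limma, adjusted p = 0.0212). The call was lost without SCNT 2, SCNT 3 or AI 2 (limma, adjusted p 0.0601 to 0.0871). SCNT minus IVP was 0.80 (95% interval 0.18 to 1.41), which did not pass the test (limma, adjusted p = 0.278), and IVP minus AI was 0.23 (limma, adjusted p = 0.61).

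The brighter HSPA5 probe set gave 10.91, 11.58 and 11.38 on SCNT arrays and 11.16, 11.28 and 11.23 on IVP arrays, against 10.82, 10.52 and 10.84 on AI arrays and 10.48, 10.28 and 10.19 on FB arrays. Here the IVP arrays stood with the SCNT arrays, and each group's arrays lay above all AI arrays. SCNT minus AI was 0.56 (1.48-fold, 95% interval 1.13 to 1.93, limma, adjusted p = 0.0355), a call that was lost without any one of SCNT 2, SCNT 3 and the AI arrays (limma, adjusted p 0.0539 to 0.139). IVP minus AI was 0.50 (95% interval 0.11 to 0.88), just short of the threshold (limma, adjusted p = 0.0738). The 2 probe sets thus placed IVP differently: near AI in the dimmer one, where IVP 3 was the lowest IVP array, and near SCNT in the brighter one, where IVP 3 lay between the other IVP arrays.

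HSP90B1, the ER member of the HSP90 family, acts on late folding steps of integrins, Toll-like receptors and other clients. Its probe set read 11.15, 11.82 and 11.95 on SCNT arrays and 11.47, 11.41 and 11.58 on IVP arrays, against 11.17, 10.72 and 11.07 on AI arrays and 9.52, 9.71 and 9.80 on FB arrays. SCNT 1 lay just below AI 1, so these groups overlapped, whereas all IVP arrays lay above all AI arrays. SCNT minus AI was 0.65 (1.57-fold, 95% interval 1.14 to 2.15, limma, adjusted p = 0.0388), again lost without any one of SCNT 2, SCNT 3 and the AI arrays (limma, adjusted p 0.0527 to 0.135). IVP minus AI was 0.50 (95% interval 0.05 to 0.96, limma, adjusted p = 0.118) and SCNT minus IVP 0.15 (95% interval -0.31 to 0.60, limma, adjusted p = 0.823), neither of which was called.

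CALR is the soluble lectin and main calcium store protein of the ER lumen. Its probe set gave 9.24, 9.61 and 9.61 on SCNT arrays and 9.26, 9.25 and 7.30 on IVP arrays, against 9.76, 9.15 and 9.88 on AI arrays and 8.13, 8.40 and 8.14 on FB arrays. SCNT and AI arrays covered much the same range, with SCNT minus AI at -0.11 (95% interval -1.09 to 0.87, limma, adjusted p = 0.876). The fit shares its spread over the conceptus groups, so this interval also holds the spread of the IVP arrays. The standard deviation of CALR was 1.13 in IVP, against 0.22 in SCNT and 0.39 in AI. A single array set the IVP values: IVP minus AI was -0.99 (limma, adjusted p = 0.146), and -0.34 without IVP 3 (limma, adjusted p = 0.361).

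CANX is the membrane-bound lectin that shares its clients with CALR. The measurable CANX probe set varied little, with 9.43, 9.91 and 9.81 on SCNT arrays and 9.69, 9.66 and 9.56 on IVP arrays, against 9.50, 9.38 and 9.56 on AI arrays and 8.92, 8.79 and 9.0 on FB arrays. Its differences SCNT minus AI (0.24, 95% interval -0.08 to 0.56), IVP minus AI (0.16, 95% interval -0.17 to 0.48) and SCNT minus IVP (0.08, 95% interval -0.24 to 0.40) were not called (limma, adjusted p 0.247, 0.489 and 0.871). These intervals are the narrowest among the chaperone probe sets, and they still leave room for 1.47-fold more in SCNT than in AI.

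PDIA3, the isomerase that CALR and CANX recruit to glycoproteins, ran the other way in its means. Its signals were 10.72, 11.16 and 9.99 on SCNT arrays and 10.91, 11.02 and 10.53 on IVP arrays, against 11.24, 10.70 and 11.21 on AI arrays and 9.75, 9.92 and 9.96 on FB arrays. The 3 conceptus groups overlapped, and SCNT 3 stood near the FB arrays. SCNT minus AI was -0.43 (95% interval -1.03 to 0.18, limma, adjusted p = 0.268).

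PDIA4, an isomerase with an additional thioredoxin-like active domain, had 2 measurable probe sets. The brighter one gave 7.79, 8.33 and 8.18 on SCNT arrays and 7.69, 7.74 and 7.91 on IVP arrays, against 7.69, 7.09 and 7.93 on AI arrays and 6.17, 6.26 and 6.01 on FB arrays. The dimmer one gave 4.88, 5.90 and 5.61 on SCNT arrays and 4.94, 4.93 and 3.99 on IVP arrays, against 5.31, 4.46 and 5.20 on AI arrays and 3.71, 3.76 and 3.42 on FB arrays. In both, SCNT and AI arrays overlapped and FB arrays lay below all conceptus arrays. SCNT minus AI was 0.53 (95% interval 0.06 to 1.0, limma, adjusted p = 0.0867) and 0.47 (95% interval -0.26 to 1.21, limma, adjusted p = 0.314). Without AI 3 the first of these was called (0.71, limma, adjusted p = 0.0423).

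**Figure D2:**
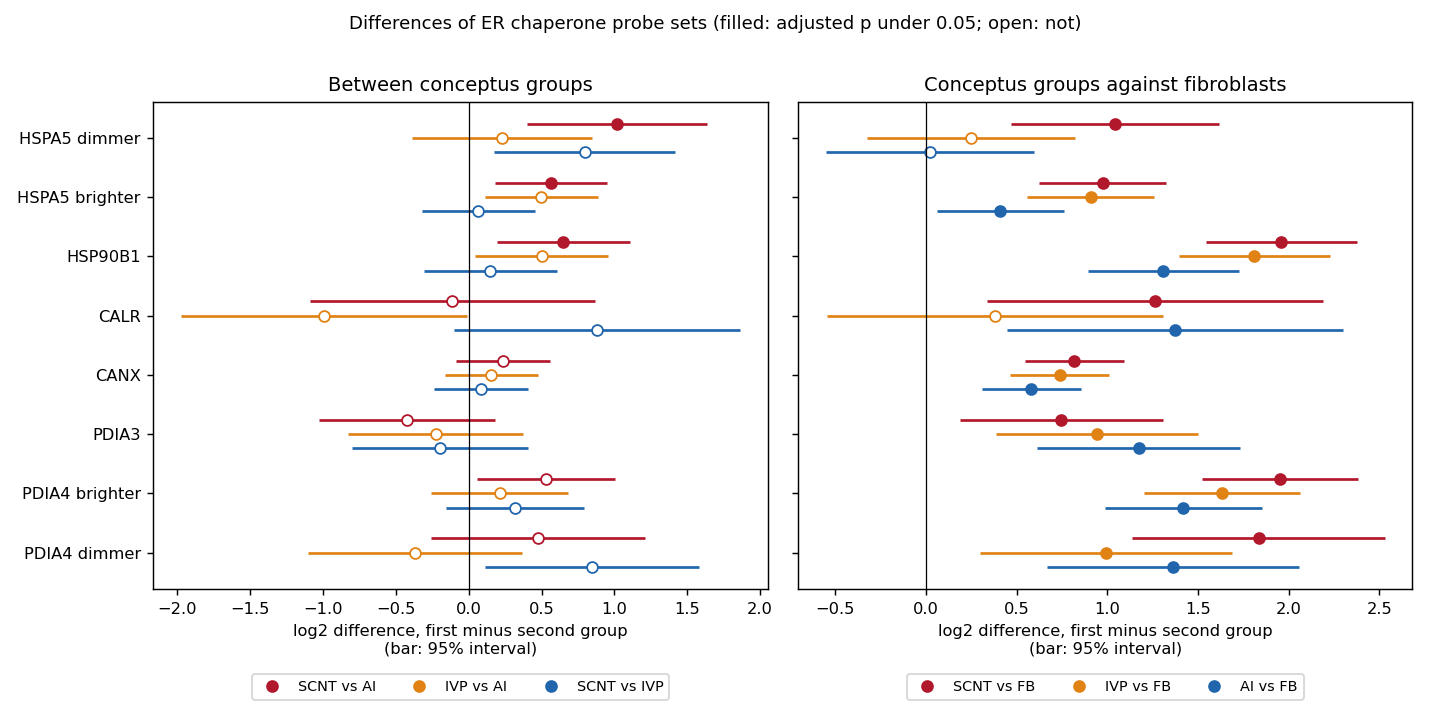
Log2 difference of the group means (x axis, first minus second group) for the 8 chaperone probe sets (y axis), with 95% intervals as bars. Filled points had an adjusted p under 0.05. Left, between conceptus groups, 3 points are filled, all of SCNT against AI. Right, against fibroblasts, 21 of the 24 points are filled, all above 0.

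Counted over SCNT against AI, 3 of 8 probe sets were called higher, 0 lower and 5 not at all, with 4 at an unadjusted p under 0.05. Over all 6892 tested probe sets 27.6% were called, and 16.2% were called higher. The median difference was 0.50 over the 8 chaperone probe sets and 0.08 over all tested probe sets. Array ranges of SCNT above those of AI without overlap were found for 2 of 8, the HSPA5 probe sets, and for 27.2% of all. With 8 probe sets of 6 genes, a count of 3 is small, and it moved with single arrays. None of the 3 was called without SCNT 2, SCNT 3 or AI 2. The dimmer HSPA5 probe set alone was called without AI 1, and it was joined without AI 3 by the brighter PDIA4 probe set. Without the 3 arrays of high spike-in signal, AI 2, IVP 2 and IVP 3, the dimmer HSPA5 probe set was again the 1 called.

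For IVP against AI, 0 of 8 probe sets were called by limma, with 3 at an unadjusted p under 0.05, against 17.9% of all tested probe sets called in either direction and 8.42% called higher. The chaperone differences ran from -0.99 (CALR) to 0.50 (HSP90B1) with a median of 0.18, and the median of all was 0.02. The IVP arrays lay above all AI arrays for the brighter HSPA5 probe set and HSP90B1, 2 of 8 probe sets against 20.1% of all. The brighter HSPA5 probe set passed where the variance prior followed the mean level (limma, adjusted p = 0.0480), where all 12 arrays entered the fit (limma, adjusted p = 0.0441) and where the fit held these groups alone (limma, adjusted p = 0.0478).

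Between SCNT and IVP, 0 of 8 probe sets were called by limma, with 2 at an unadjusted p under 0.05, the dimmer HSPA5 probe set and the dimmer PDIA4 probe set. Of all tested probe sets 0.58% were called, so few probe sets of any kind passed this comparison. The dimmer PDIA4 probe set differed by 0.84 (95% interval 0.11 to 1.58, limma, adjusted p = 0.315), and CALR by 0.88 (95% interval -0.10 to 1.86, limma, adjusted p = 0.439). One chaperone probe set, the dimmer HSPA5 probe set, had SCNT arrays above all IVP arrays, against 12.9% of all. SCNT against AI and IVP against AI share the AI arrays, so their values are given side by side and not as separate evidence.

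Markers of other cells differed between the conceptus groups compared. For hypoblast and yolk sac, 4 of 9 measured markers were above log2 4 on all arrays of each conceptus group, and their summed signal was 11.62 to 12 in SCNT and 12.41 to 12.69 in IVP, against 12.47 to 13.18 in AI on the log2 scale. AHSG, a secreted glycoprotein of that list, read 6.04 to 8.51 in SCNT and 10.25 to 10.82 in IVP, against 10.93 to 12.14 in AI. Leukocyte markers summed to 5.47 to 6.08 in SCNT and 5.38 to 6.41 in IVP, against 8.21 to 9.38 in AI, where ITGB2 and CD48 were above log2 4 on all arrays (2 of 7 measured). PTPRC, which defines leukocytes, stayed at the floor on the AI arrays. Of 4 erythroid markers only ALAS2, of heme synthesis, was above log2 4 in AI, and the globins were at the floor. The part of these cells in the chaperone differences was not tested.

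In AI and in SCNT the chaperone probe sets tended to be high or low on the same arrays. AI 2 was the lowest AI array in 8 of 8 probe sets, against 47.5% of all tested probe sets. SCNT 1 was the lowest SCNT array in 7 of 8 (39% of all) and SCNT 2 the highest in 7 of 8 (28.1% of all), with PDIA3 and HSP90B1 the exceptions in turn. The other groups were less even: IVP 3 was the lowest IVP array in 5 of 8 (37.2% of all) but the highest in 2 (34.3% of all). FB 1, FB 2 and FB 3 were the lowest FB array in 3, 1 and 4 of 8. The median deviation from the group mean was -0.40 on AI 2, -0.34 on SCNT 1 and 0.26 on SCNT 2 for the chaperones, while it lay within 0.05 of 0 for all tested probe sets on every array.

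**Figure D3:**
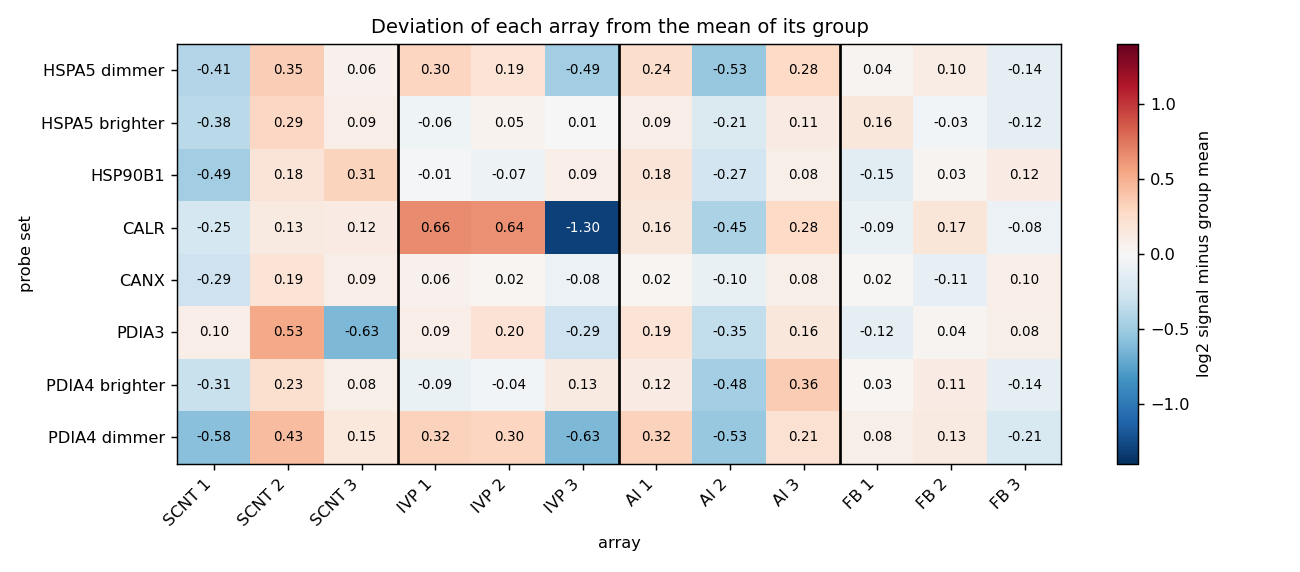
Deviation of each array (x axis) from the mean of its group, in log2 units, for the 8 chaperone probe sets (y axis); red is above and blue below the group mean. The columns of AI 2 and SCNT 1 are blue in 8 and 7 of the 8 rows, and the deepest cell is CALR on IVP 3 (-1.30).

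The map of deviations also shows how uneven the groups were. The median standard deviation of the 8 probe sets was 0.36 in SCNT, 0.19 in IVP and 0.35 in AI, against 0.16, 0.17 and 0.19 for all tested probe sets in the same order. In FB it was 0.13 for the chaperones and 0.09 for all. The spread ran from 0.22 (CALR) to 0.59 (PDIA3) in SCNT, from 0.06 (brighter HSPA5) to 1.13 (CALR) in IVP, and from 0.10 (CANX) to 0.47 (dimmer PDIA4) in AI. Chaperone signals thus varied more between SCNT arrays and between AI arrays than the typical probe set did.

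**Figure D4:**
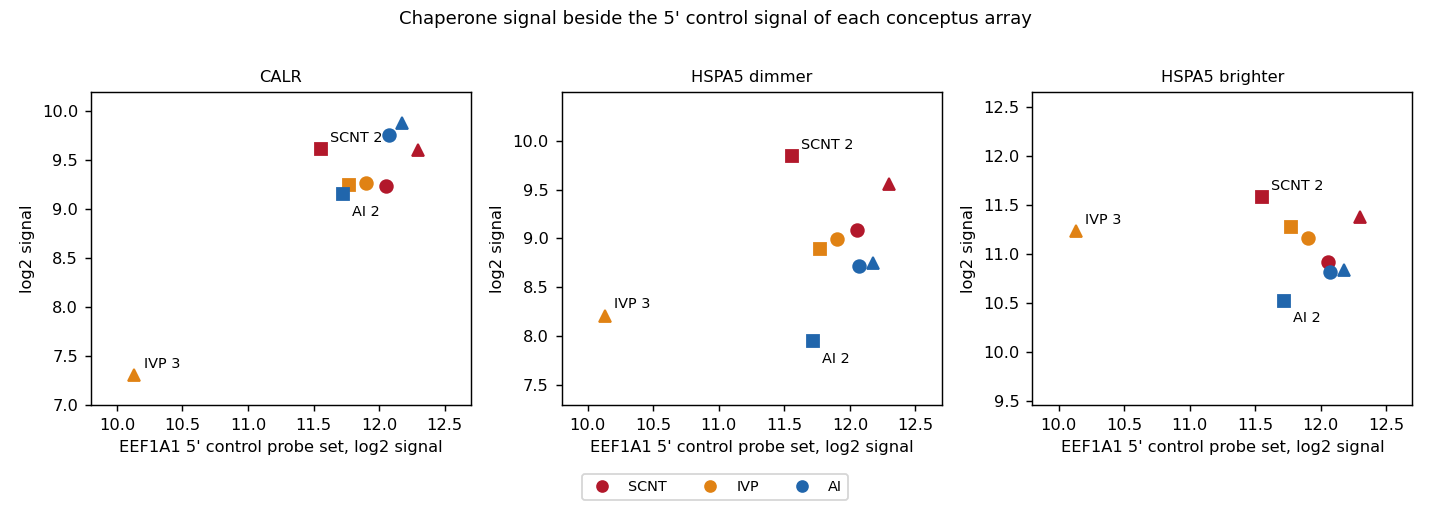
Log2 signal (y axis) of CALR and of the 2 HSPA5 probe sets against the log2 signal of the EEF1A1 5' control probe set (x axis) on the 9 conceptus arrays. Colours mark the groups, and circles, squares and triangles replicates 1, 2 and 3. IVP 3 stands apart on the x axis (10.13), and it is low for CALR and the dimmer HSPA5 probe set but not for the brighter HSPA5 probe set.

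Control values were set beside the arrays that stood apart for the chaperones. On IVP 3 the 5' control of EEF1A1, a gene of protein synthesis that serves as an RNA quality check, was 10.13, against 11.56 to 12.30 on the other conceptus arrays. The plot against the 5' control sets this beside the CALR value of 7.30. The part of RNA quality in that value was not tested beyond the fits given here. AI 2 had an EEF1A1 5' signal of 11.72, inside the range of the others, the smallest GAPDH gap of the conceptus arrays (0.21) and, with IVP 2, the highest spike-in mean (8.61). SCNT 1 and SCNT 2 had spike-in means of 7.88 and 7.90. With the spike-in mean as a covariate, SCNT minus AI was 0.52 for the brighter HSPA5 probe set (limma, adjusted p = 0.0622) and 0.57 for HSP90B1 (limma, adjusted p = 0.0709), and the dimmer HSPA5 probe set was still called. With the GAPDH gap as the covariate, the values were 0.52 (limma, adjusted p = 0.0633) and 0.59 (limma, adjusted p = 0.0691), with the same probe set still called.

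In SCNT against FB, 8 of 8 probe sets were called higher, where 79.9% of all 8164 tested probe sets were called and 45% were called higher. In IVP against FB, 6 of 8 were called higher (78.7% of all called, 43% higher), and in AI against FB 7 of 8 (77.2% of all called, 41.6% higher). The median difference was 1.15 in SCNT, 0.93 in IVP and 1.24 in AI over the chaperones, and 0.20, 0.14 and 0.11 in the same order over all. The arrays of each called chaperone probe set lay above all FB arrays, in 8 of 8 probe sets for SCNT, 6 of 8 for IVP and 7 of 8 for AI, as they did for 48.2%, 45.8% and 43.9% of all tested probe sets. The 3 comparisons share the FB arrays. The dimmer PDIA4 probe set was above log2 4 on conceptus arrays alone, so that a call could only be higher. Without it 7, 5 and 6 of 7 probe sets were higher in SCNT, IVP and AI, with a median of 1.04, 0.91 and 1.17.

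In SCNT and IVP the largest differences from fibroblasts among the chaperones were those of HSP90B1 and PDIA4. HSP90B1 was higher by 1.96 in SCNT, by 1.81 in IVP and by 1.31 in AI, which is 3.89-, 3.51- and 2.48-fold (limma, adjusted p 1.27e-06, 2.74e-06 and 4.81e-05). The brighter PDIA4 probe set was higher by 1.95, 1.63 and 1.42, or 3.87-, 3.10- and 2.67-fold (limma, adjusted p 1.80e-06, 9.51e-06 and 3.24e-05). The dimmer PDIA4 probe set averaged 5.46 in SCNT, 4.62 in IVP and 4.99 in AI, against 3.63 in FB. Since FB lay below log2 4, these are lower bounds of at least 2.76-fold in SCNT, at least 1.54-fold in IVP and at least 1.99-fold in AI, and the IVP call was lost without IVP 1 (limma, adjusted p = 0.0509) or IVP 2 (limma, adjusted p = 0.0503).

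The lectins and PDIA3 also had higher means in conceptuses than in FB, with CALR set apart by IVP 3. CALR was higher in SCNT by 1.26 (limma, adjusted p = 0.0160) and in AI by 1.37 (limma, adjusted p = 0.0106). The spread in these tests was shared by all groups, and so held that of the IVP arrays. In IVP CALR was higher by 0.38, which was not called (limma, adjusted p = 0.421), and by 1.03 without IVP 3 (limma, adjusted p = 0.000704). With the GAPDH gap as a covariate it was higher by 1.84 (limma, adjusted p = 0.0194). That gap was 0.01 to 0.06 on FB arrays and at least 0.21 on conceptus arrays. These ranges do not overlap, so differences from FB with this covariate are extrapolated. With no filter on low signals the SCNT and AI calls were lost (limma, adjusted p 0.0760 and 0.0561). CANX was higher by 0.82 in SCNT, 0.74 in IVP and 0.58 in AI, all called (limma, adjusted p at most 0.00111). PDIA3 was higher by 0.75 in SCNT, 0.94 in IVP and 1.17 in AI, all called (limma, adjusted p 0.0177, 0.00481 and 0.00117), but its SCNT call was lost without SCNT 2 (0.48, limma, adjusted p = 0.0844) or with no filter (limma, adjusted p = 0.0739), and its IVP call with the GAPDH gap covariate (limma, adjusted p = 0.0597).

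For HSPA5 the answer depended on the probe set. With the brighter one it was higher by 0.97 in SCNT, 0.91 in IVP and 0.41 in AI (limma, adjusted p 0.000124, 0.000226 and 0.0338). With the dimmer one it was higher by 1.04 in SCNT (limma, adjusted p = 0.00297), while IVP minus FB was 0.25 (95% interval -0.33 to 0.82, limma, adjusted p = 0.397) and AI minus FB 0.02 (95% interval -0.55 to 0.60, limma, adjusted p = 0.943). The AI call of the brighter one was lost without AI 1 (0.36), AI 3 (0.35), FB 2 (0.39) or FB 3 (0.35), and with either covariate (limma, adjusted p 0.0518 and 0.181). As the mean of both HSPA5 probe sets, AI minus FB was 0.22 (limma, adjusted p = 0.331). With the spike-in covariate IVP minus FB of the dimmer one was 1.07 and called (limma, adjusted p = 0.0272). With the GAPDH gap covariate IVP minus FB of the brighter one was 0.63 and not called (limma, adjusted p = 0.0777). Spike-in means were 7.33 to 7.52 on FB arrays and at least 7.69 on conceptus arrays. Like the GAPDH gap they do not overlap, so differences from FB with either covariate are extrapolated.

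Placed in order, the group means ran SCNT, IVP, AI and FB from high to low in 5 of the 8 probe sets, both of HSPA5, HSP90B1, CANX and the brighter PDIA4 probe set. CALR ran AI, SCNT, IVP and FB, PDIA3 ran AI, IVP, SCNT and FB, and the dimmer PDIA4 probe set ran SCNT, AI, IVP and FB. Of the 24 steps between neighbours in these orders, 0 of the 16 between conceptus groups and 6 of the 8 down to FB passed limma's test. The exceptions were AI to FB for the dimmer HSPA5 probe set and IVP to FB for CALR. The orders came from these same means, so the steps take the smaller gaps and are no separate test. The 3 called differences of SCNT against AI were not among the steps, as IVP stood between. Of all tested probe sets 0.58% were called in SCNT against IVP, 17.9% in IVP against AI and 27.6% in SCNT against AI. Against FB 77.2% to 79.9% were called.

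The other genes of the ER folding pathway were read from 10 lists of 183 genes, 120 of which were tested among the conceptuses with the brightest probe set of each. In SCNT against AI 19 of the 120 were higher and 8 lower, and of all 4349 genes with a symbol 28.2% were called. In IVP against AI 11 were higher and 4 lower (17.6% of all genes called), and between SCNT and IVP none of the 120 was called by limma (0.437% of all). The named calls of SCNT against AI were kept whichever of the 6 arrays was left out for 10 of 23 genes, and those of IVP against AI for 6 of 15.

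The co-chaperones and nucleotide exchange factors of HSPA5 stood nearest to the chaperones themselves. In SCNT against AI 4 of 8 tested genes were higher and 0 lower, with a median of 0.55 against 0.10 for all genes. Of all 4349 genes 28.2% were called in either direction and 769 were called higher. HYOU1, an exchange factor of HSPA5, read 7.44, 8.39 and 8.25 on SCNT arrays, against 6.97, 6.94 and 7.22 on AI arrays, a difference of 0.98 (limma, adjusted p = 0.0124) that was not called without SCNT 2 (0.80, limma, adjusted p = 0.0545). DNAJC10, a J-domain reductase of HSPA5, read 7.73, 8.26 and 8.11 on SCNT arrays, against 7.07, 7.25 and 7.11 on AI arrays, a difference of 0.89 (limma, adjusted p = 0.0025) that was called in every omission. CRELD2, an ER stress-induced folding factor, read 8.03, 8.99 and 8.71 on SCNT arrays, against 7.87, 7.34 and 8.10 on AI arrays, so that SCNT 1 lay below AI 3. Its difference of 0.81 (limma, adjusted p = 0.0403) was lost without SCNT 2, SCNT 3, AI 1 or AI 2 (adjusted p 0.0755 to 0.153). The fourth was SEC63 (0.55, limma, adjusted p = 0.0405), the J-domain partner of HSPA5 at the translocon. In IVP against AI, where 17.6% of all genes were called, DNAJC10 alone was higher (0.53, limma, adjusted p = 0.0392). This call was lost in 5 of the 6 omissions.

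The list of unfolded protein response sensors and transcription factors had 7 tested genes. The sensors ERN1, EIF2AK3, ATF6 and ATF6B were not among them, so their levels are not known here. In SCNT against AI 1 of the 7 genes was higher and 1 lower, a share near the 28.2% of all genes. SELENOS, an ER membrane selenoprotein of protein degradation, was higher by 0.68 in SCNT (limma, adjusted p = 0.0086) and by 0.63 in IVP (limma, adjusted p = 0.0172, lost without IVP 3). CREB3L2, an ER-bound transcription factor, was lower in SCNT (-0.74, limma, adjusted p = 0.0235), a call lost without SCNT 1, SCNT 3 or AI 3. ATF4 itself differed by -0.13 in SCNT against AI (limma, adjusted p = 0.696). Of 8 tested targets of ATF4, 3 were higher in SCNT and in IVP than in AI, where 28.2% and 17.6% of all genes were called in either direction, and CEBPG was lower in SCNT (-0.55, limma, adjusted p = 0.0470). The higher 3 were the mitochondrial folate enzymes MTHFD2 and SHMT2 and the tryptophan tRNA ligase WARS1. AI means of the folate enzymes lay below log2 4, so that MTHFD2 was at least 1.62-fold higher in SCNT and at least 1.31-fold in IVP, and SHMT2 at least 1.82- and at least 1.45-fold. MTHFD2 was above log2 4 on 0 AI arrays and passed the filter through the other groups alone, so a call could only be higher. The IVP call of SHMT2 was lost without AI 1 (limma, adjusted p = 0.0541). WARS1 was higher by 0.85 in SCNT and 0.47 in IVP (limma, adjusted p 0.00165 and 0.0369), and the IVP call was lost in 4 of 6 omissions, with adjusted p up to 0.119 (limma).

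Of 8 tested calcium genes 3 were higher in SCNT than in AI and 0 lower, beside 28.2% of all genes called in either direction: RCN2, a calcium-binding luminal protein (0.85, limma, adjusted p = 0.00396), the calcium release channel ITPR1 (0.64, limma, adjusted p = 0.0241) and the calcium pump ATP2A2 (0.58, limma, adjusted p = 0.0298). The calls of ITPR1 and ATP2A2 were each lost in at least 4 of 6 omissions, that of RCN2 in none. Among 13 prolyl isomerases and collagen-folding genes 1 was called in SCNT, a smaller share than among all genes. This was FKBP11, an isomerase of secretory cells. It read 9.45, 9.47 and 9.59 on SCNT arrays and 9.01, 9.27 and 9.44 on IVP arrays, against 8.52, 8.57 and 8.42 on AI arrays. That was 1.0 above AI in SCNT (limma, adjusted p = 0.000686) and 0.74 in IVP (limma, adjusted p = 0.00505), and both calls held in every omission. In IVP the collagen chaperone SERPINH1 (0.82, limma, adjusted p = 0.00632) and the prolyl hydroxylase subunit P4HA2 (0.66, limma, adjusted p = 0.0463) were higher as well, the last lost in 4 of 6 omissions.

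The remaining lists had no common direction in SCNT against AI. Of all genes 28.2% were called in either direction, a larger share than in any of these lists. Of 11 other disulfide isomerases and oxidases 0 were higher and TXNDC12 was lower (-0.73, limma, adjusted p = 0.0104). Of 12 glycan-processing genes MOGS, the glucosidase that trims the first glucose (0.63, limma, adjusted p = 0.0260), and OSTC were higher and MAGT1 was lower. Of 21 translocation genes the signal peptidase subunit SEC11C (0.77, limma, adjusted p = 0.00257), SRP19 and SRPRA were higher, while SSR2 (-0.49, limma, adjusted p = 0.0212) and SEC11A (-0.47, limma, adjusted p = 0.0293) were lower. Of 16 degradation genes DERL1 was higher (0.49, limma, adjusted p = 0.0151) and the ubiquitin-conjugating enzyme UBE2G2 lower (-0.87, limma, adjusted p = 0.00507). Of 16 genes of export and retrieval, SEC13 was higher and ARFGAP3 lower. The calls of TXNDC12, SEC11C and UBE2G2 held in every omission, and those of MOGS, OSTC, MAGT1, SSR2, SEC11A, DERL1, SEC13 and ARFGAP3 were each lost in at least 2 of 6. SEC63, CEBPG, SRP19 and SRPRA were named after their values had been seen, to complete small counts.

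**Figure D5:**
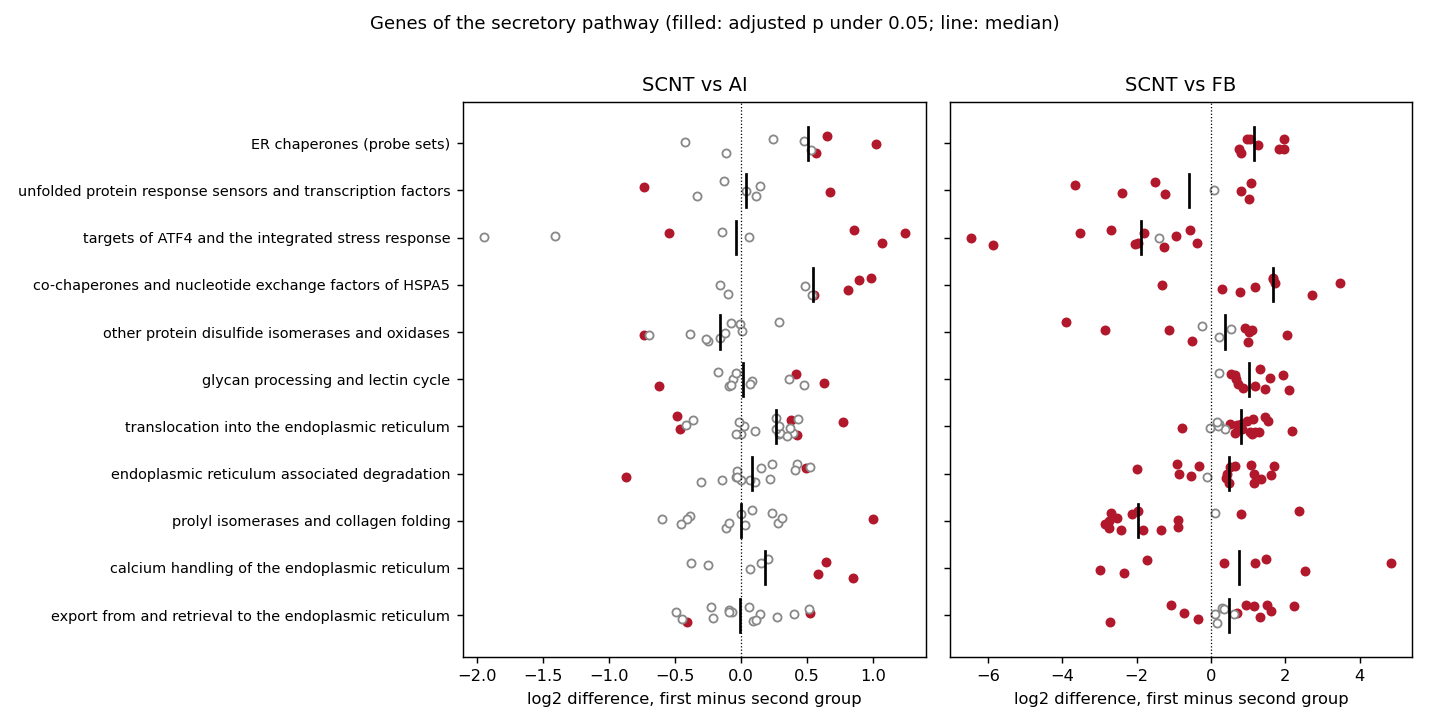
Log2 difference (x axis) of each tested gene of the 10 lists, and of the 8 chaperone probe sets in the top row, in SCNT against AI (left) and SCNT against FB (right). Filled points had an adjusted p under 0.05 and vertical lines are medians. On the left the medians of the chaperones (0.50) and of the co-chaperones (0.55) lie farthest to the right, and on the right those of ATF4 targets (-1.90) and collagen folding (-1.97) lie farthest to the left, both with genes that passed the filter only through FB arrays.

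Set against fibroblasts, a gene above log2 4 only on FB arrays could only be called lower, and a gene above it only on conceptus arrays only higher, so the calls of such genes support nothing. Co-chaperones were higher for 8 of 9 tested genes in SCNT, 8 of 9 in IVP and 7 of 9 in AI. Of all 4981 genes 79%, 77.6% and 75.9% were called in either direction in the same order. Those called higher numbered 2290, 2210 and 2068, for this list and the next ones. CRELD2 was higher by 3.47 in SCNT, 3.40 in IVP and 2.66 in AI, and HYOU1 by 2.72, 2.36 and 1.74. DNAJB9, a J-domain protein of the unfolded protein response, was higher by 1.73, 1.67 and 1.83. SIL1, named after its values were seen, was the 1 lower in each, at least 1.81-fold, and passed the filter only through FB arrays. The other 8 were higher in 8, 8 and 7. Glycan-processing genes were higher for 11, 12 and 11 of 12 and lower for none, led by MOGS in SCNT and IVP (2.09 and 1.90) and by the oxidoreductase subunit MAGT1 in AI (1.93). Of 21 translocation genes 15, 16 and 16 were higher and 1, SRP14, was lower, led by the signal peptidase subunit SPCS3 (2.19, 2.17 and 1.79). SEC61A2 and SRP68 passed only through conceptus arrays, and of the other 19 genes 13, 14 and 14 were higher.

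ATF4, the transcription factor of the integrated stress response, was lower in conceptuses of each origin. The list counts that follow stand beside 79%, 77.6% and 75.9% of all 4981 genes called in SCNT, IVP and AI. Called higher were 2290, 2210 and 2068 of all genes, and called lower 1643, 1657 and 1711. The list of unfolded protein response sensors and transcription factors had 8 tested genes here, again without ERN1, EIF2AK3, ATF6 and ATF6B. Of these 8, 3 were higher and 4 lower in SCNT, and 4 were higher and 4 lower in IVP and in AI. ATF4 averaged 7.79 in SCNT, 7.89 in IVP and 7.92 in AI, against 10.20 in FB, differences of -2.41, -2.31 and -2.28 (limma, adjusted p 2.28e-07, 3.47e-07 and 4.04e-07). DDIT3, a pro-apoptotic factor downstream of ATF4, was below log2 4 in all conceptus groups and at least 5.56-fold lower than in FB in each, but it passed the filter only through FB arrays. Without DDIT3 and NFYA, which passed only through conceptus arrays, 6 tested genes of the unfolded protein response list were left. Of these 6, 2, 3 and 3 were higher and 3 were lower in each. Of 12 tested ATF4 targets 11, 10 and 9 were lower in SCNT, IVP and AI and 0 higher. GADD45A, VLDLR, ATF3 and TRIB3 passed only through FB arrays, and of the other 8 targets 7, 6 and 5 were lower and 0 higher, with a median of -1.33, -1.42 and -2.15. PSAT1, of serine synthesis, averaged 4.06 in SCNT, 3.87 in IVP and 3.99 in AI, against 10.52 in FB. Its conceptus arrays lay at the log2 4 limit, 3.76 to 4.22 in SCNT, so that it was at least 85.5-fold lower in IVP and at least 82.7-fold in AI. Of 15 genes of collagen folding 12, 11 and 11 were lower and 2 higher. PPIC and FKBP10 passed only through FB arrays, and of the other 13 genes 10, 9 and 9 were lower, including SERPINH1 (-2.75 in SCNT and -2.99 in AI). FKBP11 and FKBP2 were the 2 higher ones. SRP14 and FKBP2 were named after their values were seen. The other lists were mixed. Disulfide isomerases and oxidases were higher for 5 of 12 in each comparison and lower for 4 in SCNT, 3 in IVP and 3 in AI, with PDIA5 higher (2.04, 1.92 and 2.03) and the secreted oxidase QSOX1 lower (-2.84, -2.77 and -2.14). Degradation genes were higher for 11, 7 and 8 of 17 and lower for 5, 4 and 5, calcium genes higher for 5, 4 and 4 of 8 and lower for 3, 3 and 4, and export genes higher for 7, 7 and 9 of 16 and lower for 4 in each. ITPR1 was at least 9.81-fold higher in SCNT, at least 8.13-fold in IVP and at least 6.28-fold in AI, while the luminal calcium-binding protein RCN1 was lower (-2.99, -2.39 and -3.06). In these lists ERO1A, ITPR1 and ITPR3 passed only through conceptus arrays, and GPX7 and UBE2J1 only through FB arrays. Without them the calcium genes were split, with 3, 2 and 2 of 6 higher and 3, 3 and 4 lower. Of the 30 list genes named by the rule in each comparison, 26 in SCNT, 24 in IVP and 25 in AI kept their call in all 6 omissions. The other 4, 6 and 5 passed the filter in 3 omissions and kept their call in those.

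Fibroblast and trophoblast markers differed between conceptuses and FB without overlap. Summed fibroblast markers were 6.24 to 6.39 in SCNT, 5.93 to 6.33 in IVP and 6.29 to 6.40 in AI, against 13.87 to 14.00 in FB on the log2 scale. Summed trophoblast markers were 15.45 to 15.66, 15.52 to 15.60 and 15.20 to 15.41, against 5.76 to 5.82 in FB. Cell type and culture therefore cannot be told apart from origin in the comparisons with FB.

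The genes whose signals over the 9 conceptus arrays were most like those of each chaperone were picked by Pearson's r, as a description only, since arrays of a group share their origin. HSPA5 (brighter probe set) was most like MOGS and CRELD2 (both 0.97) and SELENOS (0.96). HSP90B1 was most like MOGS, HSPA5 and RNF123 (0.95 each). CANX was most like MANF (0.94), CPSF6 and MERTK (0.93 each), PDIA3 like HNRNPA0 (0.94), UXS1 (0.93) and ARPC3 (0.92), and PDIA4 like GRPEL1 (0.97), CCND3 (0.96) and CYP4V2 (0.95). CALR was most like CHTOP (0.98), SRSF1 (0.95) and TBL1X (0.94), but without IVP 3 these fell to 0.80, 0.55 and 0.53, so that 1 array carried much of the likeness. For the other 5 chaperones the values without IVP 3 lay between 0.93 and 0.98. The 3 genes nearest to HSPA5 were all in the ER lists, and none of the 3 nearest to CALR was. Of the 4349 tested genes 120 were in these lists, which were chosen with earlier results of these data known.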

How the data were processed

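RNA of 12 samples (SCNT, IVP, AI and FB, 3 arrays each) was hybridised to the bovine GeneChip after 3' in vitro transcription labelling, per the labels' protocols. The authors deposited log2 values for each probe set, processed with GCRMA per the submitters' processing notes, which also name limma. The tools' versions were not stated. Of 24128 probe sets, 112 controls were left out. Gene symbols came from the platform annotation: 13292 probe sets had 1 symbol, 86 several and 10638 none.

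The linear models used lmFit and eBayes of limma 3.58.1 (R 4.3.3), on 9 arrays between conceptus groups and 12 against FB. A probe set entered if 3 or more arrays exceeded log2 4 (6892 and 8164 did), with Benjamini-Hochberg adjustment over all. Folds with a group mean below log2 4 are lower bounds, with arrays below 4 set to 4. Pathway genes were read by their brightest tested probe set. The named genes are all chaperones and, per list and comparison, up to 3 called genes of largest difference, plus the 3 genes most alike each chaperone by Pearson's r. The chaperones, lists and markers were chosen with earlier results of these data known. The number of arrays limits precision. The SCNT against AI fit was tested on simulated data in which 200 of 6892 probe sets changed, fewer than the 1902 called here. It recovered 33.7% of 1.5-fold, 78.4% of 2-fold and 97.7% of 4-fold changes, and 5.15% of calls were false. Changes of 1.5-fold were thus often missed in the simulation. A planned description of promoters and proteins was not made, as no sequences were used here. Figures were drawn with matplotlib 3.10.9.

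The main fits treated replicate numbers as not pairing the samples. Of 18 same-numbered pairs, 3 had deviations correlated above 0.1, in a range of -0.15 to 0.24. With 3 arrays per group these values cannot decide if the numbers pair the samples. Alternatives covered filters, scaling, variance prior, covariates, left-out arrays, a replicate block and probe set choice.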

Additional observations from a re-analysis of the deposited data

How the results depend on the processing

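The count of 3 chaperone probe sets called in SCNT against AI became 0 with no filter or at an adjusted p under 0.01, and 1 with the spike-in covariate, the GAPDH gap covariate, only the groups compared, or without AI 2, IVP 2 and IVP 3 together. It ranged from 0 to 3 with single arrays left out. The count for IVP against AI was 1, in place of 0, with a mean-dependent variance prior, all 12 arrays in the fit or only the groups compared. With a replicate block, the brighter HSPA5 probe set had an adjusted p of 0.0511 in SCNT against AI and 0.0528 in AI against FB (limma). Both of its calls were thus lost, and it is not known if the numbers pair the samples. All chaperone differences that changed sign were uncalled. With the spike-in covariate SCNT minus IVP was -0.064 for brighter HSPA5, -0.067 for HSP90B1, -0.031 for CANX and -0.011 for brighter PDIA4. With the GAPDH gap covariate SCNT minus AI was 0.16 for CALR, and IVP minus AI -0.078 for brighter PDIA4, which was -0.12 without AI 2, IVP 2 and IVP 3 and -0.079 as the mean of the gene's probe sets. With single arrays left out, SCNT minus AI ran from -0.34 to 0.029 for CALR, and IVP minus AI from -0.037 to 0.47 for dimmer HSPA5 and from -0.025 to 0.39 for brighter PDIA4. SCNT minus IVP ran from -0.079 to 0.26 for brighter HSPA5, -0.0061 to 0.39 for HSP90B1, -0.015 to 0.23 for CANX and -0.46 to 0.12 for PDIA3, and AI minus FB from -0.12 to 0.29 for dimmer HSPA5. The cause of these changes was not tested. Called probe sets of all kinds numbered 918 to 2529 over the settings in SCNT against AI (1902 as reported), 415 to 1827 in IVP against AI (1234) and 3 to 127 in SCNT against IVP (40). Of the last, 40% were higher, against 32.3% after quantile scaling and 28.6% after median centring. The planned strand alternative was not run, as no sequences were used.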
